A study of Mus musculus with 24 samples.

Results

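Expression of 8 genes of cholesterol metabolism was described in wild-type and *Olfml3* knockout macrophages. The genes were *Hmgcs1*, *Sqle*, *Fdft1*, *Fdps*, *Idi1*, *Insig1*, *Srebf2* and *Ch25h*, chosen by symbol, and all 8 were found in both tables among 56691 genes. RNA-seq was performed on RAW264.7, a macrophage-like cell line from mouse, and on bone marrow-derived macrophages (BMDMs) grown with L929-cell supernatant from 8-week-old male C57BL/6 mice. Each cell type was wild type or *Olfml3* knockout and received PBS or 100 ng/mL lipopolysaccharide (LPS, an outer membrane component of Gram-negative bacteria) for 4 h, which gave 8 groups of 3 libraries and 24 libraries in all. The knockout line was made with CRISPR guides carried by lentivirus and grown from sorted single cells, so it stands for the clone sequenced, and the knockout mice lack *Olfml3* in every tissue. The study calls the libraries of a group biological replicates. The sources used here do not say whether they came from separate cultures or animals, so p-values measure the spread between these libraries.

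Mammalian cells make cholesterol from acetyl-CoA through the mevalonate pathway. When sterol in the membrane of the endoplasmic reticulum is low, the transcription factor SREBP2, the product of *Srebf2*, is carried to the Golgi, cleaved and sent to the nucleus, where it turns on most genes of the pathway, *Insig1* among them. INSIG1 closes the loop by holding the SREBP escort in the endoplasmic reticulum. Macrophages answer LPS and interferon with *Ch25h*, which encodes cholesterol 25-hydroxylase, and its product 25-hydroxycholesterol blocks SREBP2 processing and acts on other cells. Among the 8 genes, 5 encode enzymes of cholesterol synthesis, *Insig1* and *Srebf2* control it, *Ch25h* modifies the product, and none encodes a receptor that takes up lipoproteins.

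Levels are given as deposited FPKM (counts scaled by exon length and library total), and comparisons as limma log2 fold changes of log2(FPKM + 0.1) ± SE with Benjamini-Hochberg adjusted p. Genes were called changed where both the adjusted p was below 0.05 and the change reached 1.5-fold, or 0.585 on the log2 scale. The RAW264.7 libraries held 11638273 to 16478616 counts and the BMDM libraries 17121240 to 22873094. The tables of the cell types were normalised separately, so levels set across them are a description, and no difference between cell types was tested. In bulk RNA, fewer cells of a type and less RNA per cell cannot be told apart. The comparisons within a cell type share groups of libraries, so they are not independent of each other.

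*Olfml3* was checked first. In BMDMs it had 71 to 88 counts per wild-type library with PBS and 33 to 35 with LPS, against 0 to 4 counts in the knockout libraries. In RAW264.7 cells its reads went against the label, at 0.163 ± 0.023 FPKM (SD, n = 3) in wild-type and 0.950 ± 0.275 in knockout libraries with PBS, and at 0.183 ± 0.092 and 18.7 ± 0.3 with LPS. A small insertion or deletion would leave the transcript countable, so these reads do not check the edit. Why they were higher under the knockout label was not tested, nor was whether the labels are right. Every RAW264.7 genotype direction below rests on these labels, and the RAW264.7 groups are called wild type and labelled knockout. Of 8 macrophage markers, 7 in RAW264.7 cells and 8 in BMDMs reached 1 FPKM, with *Mertk* at 0 counts throughout the line. Their summed level was 3344 to 3402 FPKM in wild-type and 1145 to 1420 in labelled knockout RAW264.7 libraries with PBS, and 3880 to 4013 and 1215 to 1278 with LPS. The summed level of 5 dendritic cell markers was 1.14 to 1.36 FPKM and 8.77 to 10.2 with PBS, and 0.68 to 0.80 and 2.75 to 2.93 with LPS. Single genes weigh heavily in these sums. Over the RAW264.7 libraries *Siglech* ran from 0.18 to 9.72 FPKM, and the next dendritic cell marker, *Xcr1*, reached 0.92. Of the macrophage markers *Lyz2* ran from 259 to 2264 FPKM. The sums moved with each genotype comparison in RAW264.7 cells below, which does not show that each list moved as a whole. Their part in those comparisons was not tested. In BMDMs the macrophage sum was 12368 to 12637 FPKM in wild-type and 12875 to 13153 in knockout libraries with LPS, and 14853 to 15277 and 16620 to 17811 with PBS. Lists of T and NK, B, neutrophil, fibroblast and erythroid markers summed to at most 8.17 FPKM in any library, with *Cd3e* and *Ly6g* at 0 counts. Labelled knockout PBS replicate 1 of RAW264.7 stood apart, as its mean correlation was 0.964 with its own group and 0.973 with the wild-type libraries. For the genotype comparison with PBS, the named genes that were called are given with and without it. In the other RAW264.7 comparisons that use it, not all values without it are given.

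**Figure D1:**
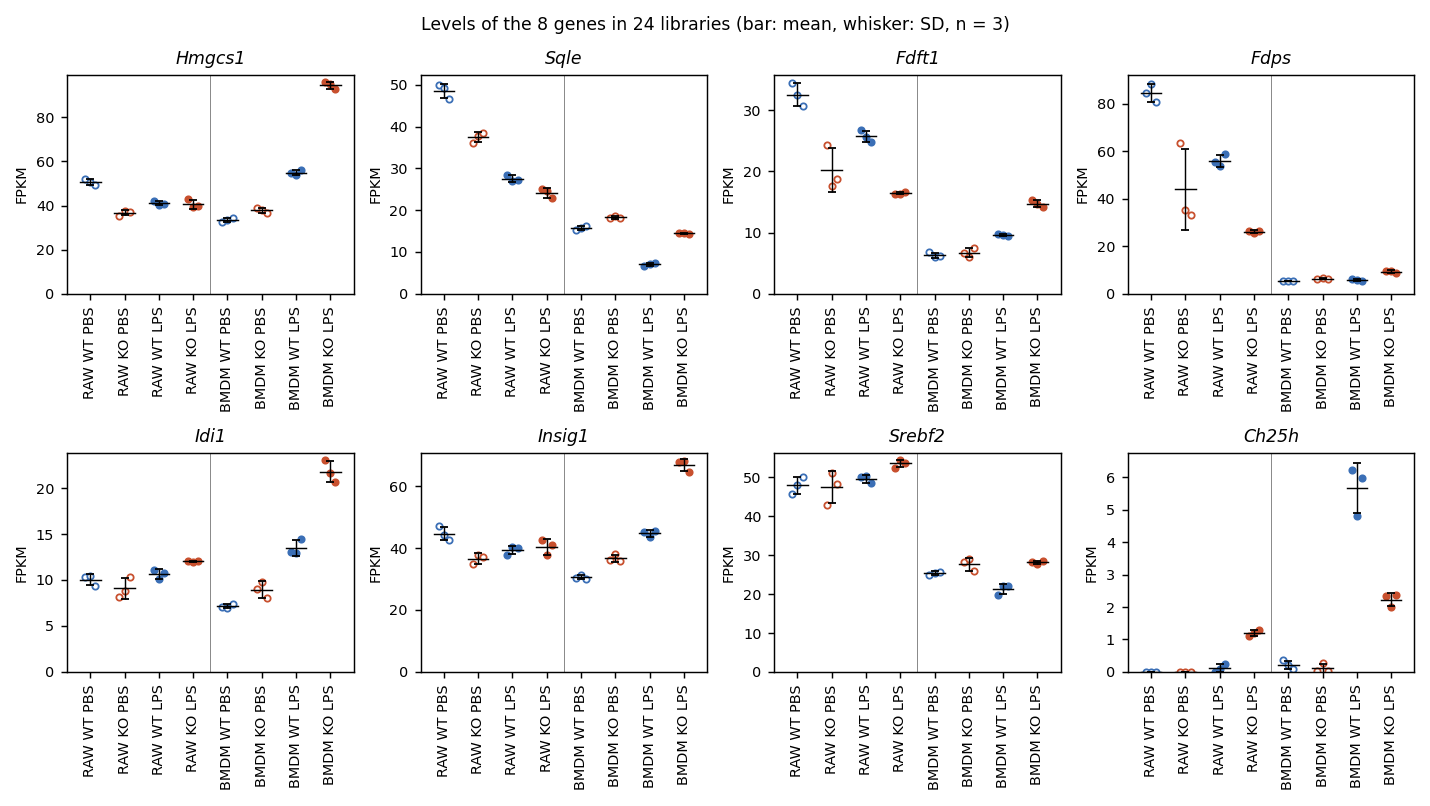
FPKM of each of the 8 genes by library, with RAW264.7 groups left and BMDM groups right of the grey line (blue, wild type; orange, knockout or labelled knockout; open, PBS; filled, LPS; bar and whisker, mean and SD of 3 libraries). *Hmgcs1*, *Fdft1*, *Idi1* and *Insig1* were highest among BMDM groups in knockout libraries with LPS, and *Ch25h* was listed at 0 in the RAW264.7 PBS groups.

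Knockout BMDMs treated with LPS had more transcript of the synthesis enzymes than wild-type BMDMs treated with LPS. *Hmgcs1*, *Sqle*, *Fdft1*, *Fdps* and *Idi1* rose, which is 5 of 8 genes, beside 3.23% of the 26973 genes tested that rose in this comparison and 5.27% of the 9622 with a mean of at least 1 FPKM in either group. No member fell by these limits, beside 1.53% of all genes tested. *Ch25h* (limma adjusted p = 0.0584) was called lower under other settings, among them median-ratio scaling, edgeR and DESeq2, as given below. The summed level of these 5 enzymes was 154.9 ± 3.8 FPKM in knockout and 90.7 ± 1.7 in wild-type libraries (SD, n = 3).

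*Hmgcs1* (ENSMUSG00000093930, chromosome 13) encodes the HMG-CoA synthase that feeds the pathway. It was at 96.05, 95.06 and 92.94 FPKM in knockout and 54.65, 53.98 and 56.10 in wild-type BMDM libraries with LPS. The lowest knockout library was far above the highest wild-type library, and the log2 fold change was 0.78 ± 0.04, or 1.72-fold (adjusted p = 1.08e-05).

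*Idi1* (ENSMUSG00000058258, chromosome 13) encodes the isomerase of the isoprenoid units. Its levels were 23.02, 21.68 and 20.66 FPKM in knockout and 13.04, 12.96 and 14.50 in wild-type libraries. The groups did not overlap, and it rose 1.61-fold (log2 0.69 ± 0.08, adjusted p = 0.000427).

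*Fdps* (ENSMUSG00000059743, chromosome 3), the farnesyl diphosphate synthase, was at 9.35, 9.75 and 8.72 FPKM in knockout and 6.13, 5.83 and 5.16 in wild-type libraries. It rose 1.62-fold without overlap (log2 0.69 ± 0.07, adjusted p = 0.000168). *Fdft1* (ENSMUSG00000021273, chromosome 14), which encodes squalene synthase, the first enzyme committed to sterols, was at 15.38, 14.61 and 14.18 against 9.81, 9.52 and 9.45 FPKM. Its groups lay apart as well, and its 1.53-fold rise was close to the fold limit (log2 0.61 ± 0.08, adjusted p = 0.000746). It was under the limit without knockout LPS replicate 1 (log2 0.58) and with a pseudocount of 1 (0.57).

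*Sqle* (ENSMUSG00000022351, chromosome 15) encodes squalene epoxidase, a rate-limiting step of the later pathway. It had the highest fold change of the 5 enzymes, at 14.46, 14.53 and 14.30 FPKM in knockout and 6.64, 7.08 and 7.38 in wild-type libraries. The 2.04-fold rise (log2 1.03 ± 0.05, adjusted p = 6.25e-06) was many times its standard error.

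*Insig1* (ENSMUSG00000045294, chromosome 5) was at 67.77, 68.12 and 64.62 FPKM in knockout and 45.14, 43.57 and 45.56 in wild-type BMDMs with LPS. Its groups were apart and its adjusted p was 5.2e-05, while its fold change of 1.49 (log2 0.58 ± 0.05) was just under the limit, which it passed without wild-type LPS replicate 3 (log2 0.59) or without knockout LPS replicate 3 (log2 0.60), and with TPM (0.59). *Srebf2* (ENSMUSG00000022463, chromosome 15) was at 28.36, 27.68 and 28.54 against 19.87, 22.07 and 22.05 FPKM. Its adjusted p was 0.00141, and its 1.32-fold difference (log2 0.40 ± 0.06) was under the limit.

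The size of these changes depended on how libraries were scaled. The median log2 fold change of all expressed genes in this comparison was 0.13 with the deposited FPKM and -0.02 with median-ratio scaling, and 67.9% of called genes were higher with the first and 43.4% with the second. With median-ratio scaling, *Sqle* (0.88) and *Hmgcs1* (0.63) still rose, while *Fdps* (0.54), *Idi1* (0.53) and *Fdft1* (0.46) kept adjusted p-values under 0.05 and fell below the fold limit.

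**Figure D2:**
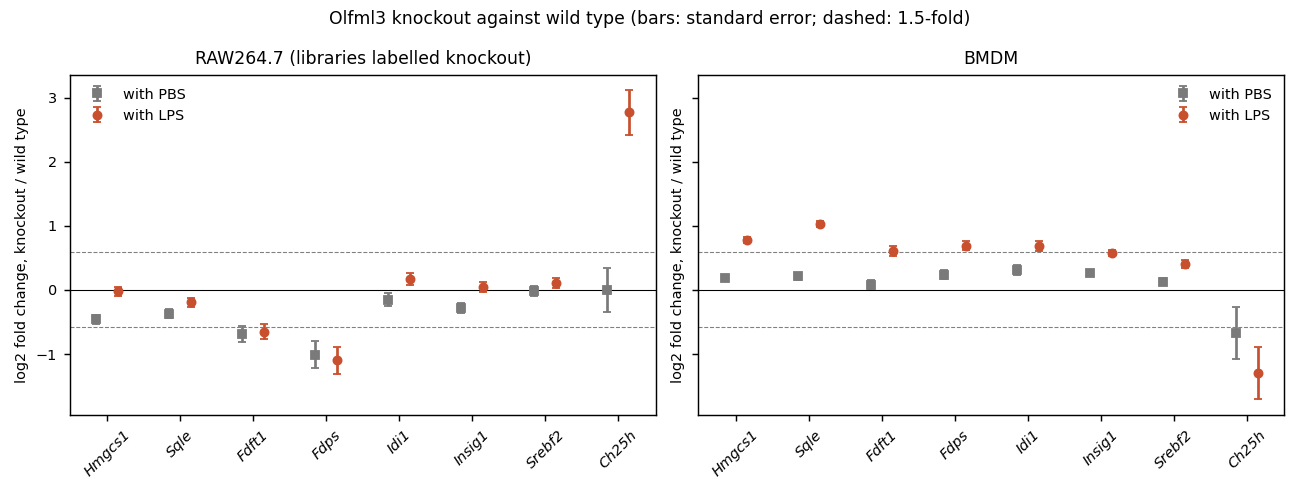
Log2 fold change of each gene, knockout over wild type, in RAW264.7 cells (left) and BMDMs (right), with PBS (grey squares) and LPS (orange circles); bars are standard errors and dashed lines mark 1.5-fold. In BMDMs with LPS, 7 genes sit above 0 and *Ch25h* at -1.30, whereas *Fdps* and *Fdft1* sit below the lower line in RAW264.7 cells with either treatment.

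The promoters of 3 of these genes that moved together in BMDMs, *Hmgcs1*, *Idi1* and *Insig1*, are shown for the motifs known to serve SREBP2 and its partner NF-Y. RefSeq windows (GRCm38.p6) ran from 250 bases before to 50 after the start of transcription, 5′ to 3′ on the strand of the gene, and 5 of the 8 genes were matched. Capitals mark the sterol regulatory element core TCACNCCAC and the NF-Y box CCAAT, which reads ATTGG on the other strand; the motifs did not overlap each other.
*Hmgcs1* (chr13:119690101-119690400, plus strand): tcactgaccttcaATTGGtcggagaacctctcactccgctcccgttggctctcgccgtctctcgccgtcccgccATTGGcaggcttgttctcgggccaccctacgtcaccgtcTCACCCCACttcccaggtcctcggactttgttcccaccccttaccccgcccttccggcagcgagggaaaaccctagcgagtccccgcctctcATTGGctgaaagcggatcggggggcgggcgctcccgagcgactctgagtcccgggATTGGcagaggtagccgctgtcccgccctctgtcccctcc
*Idi1* (chr13:8885356-8885655, plus strand): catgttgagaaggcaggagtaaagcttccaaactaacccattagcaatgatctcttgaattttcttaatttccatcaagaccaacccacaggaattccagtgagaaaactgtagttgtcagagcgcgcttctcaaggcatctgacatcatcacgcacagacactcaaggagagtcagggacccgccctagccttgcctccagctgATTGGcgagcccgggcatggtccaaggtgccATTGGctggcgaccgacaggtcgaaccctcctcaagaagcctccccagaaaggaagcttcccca
*Insig1* (chr5:28071162-28071461, plus strand): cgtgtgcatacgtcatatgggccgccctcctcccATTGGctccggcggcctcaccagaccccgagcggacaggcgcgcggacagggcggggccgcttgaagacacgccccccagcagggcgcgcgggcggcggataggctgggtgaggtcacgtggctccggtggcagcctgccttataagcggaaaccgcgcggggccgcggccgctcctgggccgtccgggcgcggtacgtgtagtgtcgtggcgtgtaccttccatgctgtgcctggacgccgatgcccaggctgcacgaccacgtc

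The sterol regulatory element core was found, on either strand, in 1.24% of all 32851 windows. Of the 5 matched members it was in *Hmgcs1*, at bases 114 to 122 of the window, 137 bases before the start. *Sqle*, *Fdft1* and *Fdps* had no window. Among genes with a window in the further lists given below, the core was in 0 of 15 other synthesis enzymes and 0 of 7 SREBP control genes. It was in 1 of 6 uptake genes, 0 of 5 oxysterol genes and 0 of 5 fatty acid genes. The NF-Y box was in 37.4% of all windows and in 4 of 5 members, 4 times in *Hmgcs1*, at 2 places in *Idi1* and once each in *Insig1* and *Srebf2*. The E-box CACGTG, in 7.15% of windows, was in *Insig1*, and the GC box GGGCGG, in 35.7%, was in the same 4 members as the NF-Y box. The window of *Ch25h* held none of these and no interferon response element core, GAAA and GAAA with a pair of any bases between, which 3.44% of all windows held. A match is a description of letters in this window and not a site shown to be bound.

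With PBS, no member was called changed between knockout and wild-type BMDMs, where 0.901% of genes tested rose and 0.916% fell. limma gave 2 members an adjusted p under 0.05, *Insig1* (log2 0.26 ± 0.05, adjusted p = 0.0109) and *Sqle* (0.21 ± 0.05, adjusted p = 0.0487), both under the fold limit. At an unadjusted p below 0.05 there were 5 members. edgeR and DESeq2 also called no member, with adjusted p-values below 0.05 for 5 and 4. The share of all genes under these p limits alone was not counted, so these member counts are a description only. *Hmgcs1*, *Sqle*, *Fdps*, *Idi1*, *Insig1* and *Srebf2* were each higher in every knockout library than in any wild-type library, as for *Hmgcs1* at 36.71 to 39.10 against 32.70 to 34.24 FPKM. For *Srebf2* the lowest knockout library was at 25.88 and the highest wild-type library at 25.81 FPKM (limma adjusted p = 0.383). The share of all genes whose groups lay apart was not counted, so this order is a description only.

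The difference between the genotype effects with LPS and with PBS was tested as an interaction, which 2.93% of genes tested passed. *Sqle* (log2 0.82 ± 0.07, adjusted p = 0.000234) and *Hmgcs1* (0.61 ± 0.06, adjusted p = 0.00055) passed it. *Fdft1* (0.53 ± 0.11, adjusted p = 0.0245), *Fdps* (0.45 ± 0.10, adjusted p = 0.0256) and *Insig1* (0.31 ± 0.06, adjusted p = 0.0213) had adjusted p-values under 0.05 and were below the fold limit, and *Fdft1* passed the limit without knockout PBS replicate 3 (0.61). *Idi1* (0.37), *Srebf2* (0.28) and *Ch25h* (-0.64, adjusted p = 0.632) passed neither, although *Ch25h* passed both with a pseudocount of 1 (-0.91, adjusted p = 0.00685). Of all genes called in the interaction, 65.1% were positive with the deposited FPKM and 46.8% with median-ratio scaling, under which *Sqle* passed (0.71) and *Hmgcs1* did not (0.50).

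LPS itself moved the members apart from each other in BMDMs. In wild-type cells *Hmgcs1*, *Fdft1*, *Idi1* and *Ch25h* rose and *Sqle* fell, beside 7.94% of genes tested that rose and 32.5% that fell. In knockout cells *Hmgcs1*, *Fdft1*, *Idi1*, *Insig1* and *Ch25h* rose and none fell, beside 8.02% and 30.9%. *Hmgcs1* went from 32.70, 33.57 and 34.24 FPKM with PBS to 54.65, 53.98 and 56.10 with LPS in wild-type libraries (log2 0.71 ± 0.04, adjusted p = 2.55e-07), and from 39.10, 37.80 and 36.71 to 96.05, 95.06 and 92.94 in knockout libraries (1.32 ± 0.04, adjusted p = 3.62e-09). In both genotypes its LPS libraries were all above its PBS libraries. The rise of *Fdft1* in wild-type cells was near the limit (0.60 ± 0.08, adjusted p = 0.000108) and was under it without wild-type PBS replicate 2 (0.56) or 3 (0.58), without wild-type LPS replicate 1 (0.58), with TPM (0.56) and with a pseudocount of 1 (0.54).

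*Sqle* went the other way. It was at 15.23, 15.85 and 16.26 FPKM in wild-type libraries with PBS and at 6.64, 7.08 and 7.38 with LPS (log2 -1.16 ± 0.05, adjusted p = 2.01e-08). In knockout libraries it was at 18.20, 18.63 and 18.04 with PBS and 14.46, 14.53 and 14.30 with LPS, a difference of -0.34 ± 0.05 that did not reach the fold limit. With the deposited FPKM the order of its 4 BMDM groups was thus knockout with PBS, wild type with PBS, knockout with LPS and wild type with LPS, with no overlap between neighbours. With median-ratio scaling the difference in knockout cells was 0.35, and this order did not hold.

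These LPS directions must be read against a shift of all genes. The median expressed gene had a log2 fold change of -0.76 in wild-type and -0.66 in knockout BMDMs with the deposited FPKM, and of 0.02 in both with median-ratio scaling; the share of called genes that were higher went from 19.6% to 47.9% and from 20.6% to 46.8%. Under that scaling the rises of *Hmgcs1* were 1.51 and 2.01 and those of *Idi1* 1.70 and 1.97, *Fdps* and *Insig1* rose in both genotypes, and *Sqle* stood at -0.36 in wild-type and 0.35 in knockout cells, neither past the fold limit. *Srebf2* turned from -0.25 to 0.55 in wild-type cells, neither past it, and from 0.03 to 0.72 in knockout cells, a rise.

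**Figure D3:**
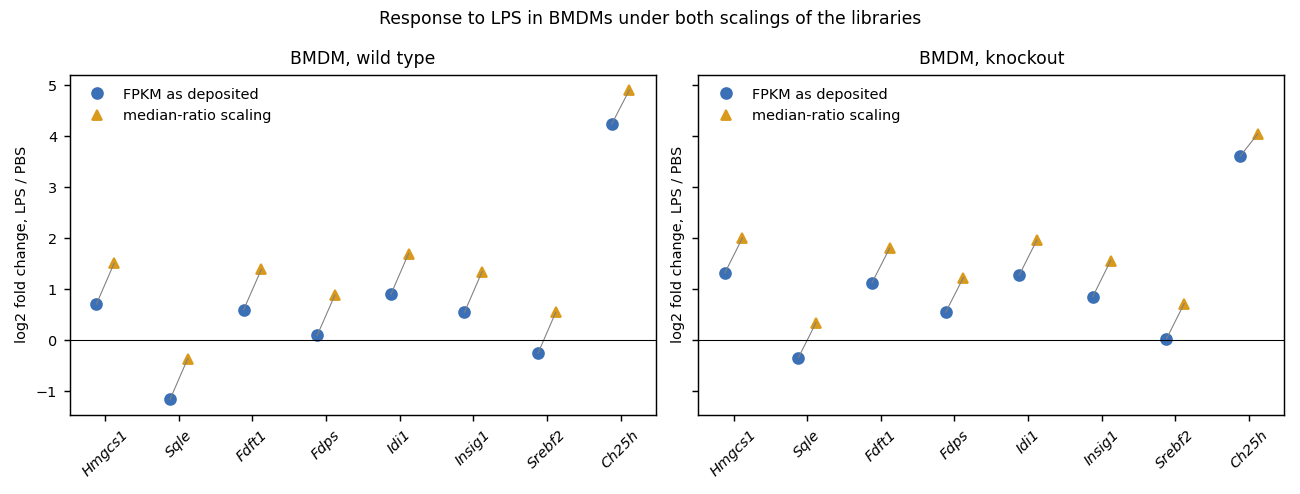
Log2 fold change of each gene, LPS over PBS, in wild-type (left) and knockout (right) BMDMs, with deposited FPKM (blue circles) and with median-ratio scaling (yellow triangles), joined by a line per gene. Median-ratio scaling raises every gene, and *Sqle* in wild-type cells stays below 0 under both, at -1.16 and -0.36.

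In RAW264.7 cells the labelled knockout was lower in *Fdps* and *Fdft1* with either treatment, while both rose in knockout BMDMs with LPS. With PBS these were the 2 members called, beside 3.77% of genes tested that fell, and no member rose, beside 4.79%. *Fdps* was at 63.34, 35.05 and 33.21 FPKM in labelled knockout and 84.51, 88.08 and 80.83 in wild-type libraries. Labelled knockout replicate 1 lay between the other libraries of its group and the wild type. The log2 fold change was -1.01 ± 0.21 (adjusted p = 0.014), and without that library it was -1.30 (adjusted p = 2.25e-06). Without wild-type replicate 2 or without labelled knockout replicate 2 or 3 the adjusted p rose to between 0.0519 and 0.0578.

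*Fdft1* was at 24.36, 17.66 and 18.81 FPKM in labelled knockout and 34.42, 32.52 and 30.74 in wild-type libraries with PBS, again with replicate 1 highest in its group and no overlap. It fell by 0.69 ± 0.12 on the log2 scale (adjusted p = 0.00469), and by 0.83 without that replicate (adjusted p = 2.29e-05). *Hmgcs1* (-0.46 ± 0.07, adjusted p = 0.00258), *Sqle* (-0.37 ± 0.07, adjusted p = 0.00996) and *Insig1* (-0.28 ± 0.08, adjusted p = 0.0464) were lower in every labelled knockout library than in any wild-type library without reaching the fold limit. *Idi1* (-0.15) and *Srebf2* (-0.02) overlapped between the groups. Here too the share of all genes whose groups lay apart was not counted.

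With LPS, *Fdps* was at 26.57, 25.43 and 26.31 FPKM in labelled knockout and 55.34, 53.72 and 58.68 in wild-type RAW264.7 libraries, a 2.14-fold lower level (log2 -1.10 ± 0.21, adjusted p = 0.00529). *Fdft1* was at 16.32, 16.30 and 16.58 against 26.76, 25.55 and 24.89 FPKM (log2 -0.65 ± 0.12, adjusted p = 0.00419). Both groups of libraries were tight and far apart. In this comparison 2 of 8 members fell, beside 7.6% of genes tested, and *Ch25h* alone rose, beside 9.73%. *Hmgcs1* was at 39.42 to 43.04 FPKM in labelled knockout and 40.33 to 42.27 in wild-type libraries, which overlapped, and *Sqle* (-0.19 ± 0.07, adjusted p = 0.0843), *Idi1*, *Insig1* and *Srebf2* were not called.

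When each RAW264.7 library was scaled to the same FPKM sum (TPM), the share of called genes that were higher in the labelled knockout went from 56.0% to 72.5% with PBS and from 56.1% to 75.8% with LPS. *Fdps* still fell, by 0.82 and by 0.86, while *Fdft1*, at -0.50 and -0.41, no longer reached the fold limit. *Sqle* with LPS turned from -0.19 to 0.05 and *Hmgcs1* from -0.02 to 0.22, neither called.

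LPS lowered *Sqle* in RAW264.7 cells with the deposited FPKM. It went from 49.93, 49.17 and 46.57 FPKM to 28.44, 26.99 and 27.17 in wild-type libraries (log2 -0.82 ± 0.07, adjusted p = 1.75e-05), and from 36.20, 37.76 and 38.51 to 25.13, 24.51 and 22.91 in labelled knockout libraries (-0.63 ± 0.07, adjusted p = 8.24e-05). No library with LPS reached the lowest with PBS in either genotype. It was the only member called in wild-type cells, beside 12.5% of genes tested that fell and 5.8% that rose. In labelled knockout cells *Fdps* also fell (-0.68 ± 0.21, adjusted p = 0.0326) and *Ch25h* rose, beside 14.6% and 7.45%. The change of *Fdps* was -0.39, under the fold limit, without labelled knockout PBS replicate 1, -0.42 with median-ratio scaling, -0.51 in edgeR and -0.48 in DESeq2, and the adjusted p was 0.0736 to 0.0858 without any 1 of the LPS replicates.

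The median expressed gene shifted by -0.22 in either RAW264.7 genotype, and median-ratio scaling took the share of called genes that were higher from 31.7% to 49.7% and from 33.8% to 51.7%. Under it *Sqle* was at -0.58 and -0.36, below the fold limit in both genotypes. *Hmgcs1* went from -0.30 to -0.06 in wild-type cells, and *Idi1* passed the limit in labelled knockout cells (0.67). The interaction in RAW264.7 cells was called for *Ch25h* alone, beside 1.95% of genes tested.

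*Ch25h* (ENSMUSG00000050370, chromosome 19) rose with LPS in BMDMs of both genotypes and in labelled knockout RAW264.7 cells. In BMDMs it was at 0.36, 0.20 and 0.10 FPKM with PBS and 6.23, 4.79 and 5.96 with LPS in wild-type libraries, and at 0.03, 0.28 and 0.04 and 2.33, 1.99 and 2.36 in knockout libraries. Every LPS library was far above every PBS library, with log2 fold changes of 4.24 ± 0.41 (adjusted p = 8.47e-06) and 3.61 ± 0.41 (adjusted p = 3.18e-05).

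With LPS the knockout BMDM libraries were all below the wild-type libraries for *Ch25h*, with 56 to 70 counts against 146 to 194. limma gave -1.30 ± 0.41 with an adjusted p of 0.0584, which did not pass. The tests on counts called it, with -1.50 in edgeR (adjusted p = 6.64e-08) and -1.51 in DESeq2 (adjusted p = 1.15e-11), as did limma with median-ratio scaling (-1.46, adjusted p = 0.0255), with a pseudocount of 1 (-1.04, adjusted p = 0.000173) and with a minimum of 1 FPKM in 3 libraries (-1.30, adjusted p = 0.022). With PBS there were 1 to 11 counts per library, and the genotypes overlapped.

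In RAW264.7 cells *Ch25h* had 0 counts in all PBS libraries, 0, 2 and 5 counts in wild-type libraries with LPS and 18, 22 and 22 in labelled knockout libraries with LPS. Measured against a floor of 3 counts over the PBS group, the observed LPS counts were 26.1-fold higher in labelled knockout and 2.37-fold higher in wild-type cells. The error of the LPS counts themselves is not covered, so these folds are not lower limits, least of all for the few wild-type counts. limma called the first (adjusted p = 2.34e-05) and not the second (0.94 ± 0.35, adjusted p = 0.0853), which edgeR called (adjusted p = 0.0428) and which limma called without wild-type LPS replicate 1 (1.40, adjusted p = 0.000995). The labelled knockout was higher with LPS, at 1.12 to 1.30 against 0 to 0.25 FPKM (log2 2.77 ± 0.35, adjusted p = 0.000602), where the knockout BMDMs were lower. With so few wild-type counts the size of this difference rests on the pseudocount, from 0.99 with 1 to 4.20 with 0.01, both called, and edgeR gave 3.24 (adjusted p = 0.00341). limma also pooled the spread of all RAW264.7 groups, and for *Ch25h* both PBS groups had none. Its SE here thus understates the spread of the wild-type LPS libraries, and its p-values are too small for them. The limma interaction was 2.77 ± 0.49 (adjusted p = 0.0199), and since both PBS groups were at 0 its size depends on the pseudocount. It was not called by edgeR (adjusted p = 1) or with a pseudocount of 0.01 (adjusted p = 0.29).

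The other genes of the pathway were counted in 5 further lists. Of 17 other enzymes of synthesis, 12 rose and none fell in knockout BMDMs with LPS, with a median log2 fold change of 0.69 beside 0.13 for expressed genes. With median-ratio scaling 6 of the 17 rose and none fell, with a median of 0.54. With PBS none of the 17 changed. The interaction was called for 6 of the 17, for 2 with median-ratio scaling, and for 4 without wild-type LPS replicate 2. *Hsd17b7*, a sterol ketoreductase, was at 8.53, 8.71 and 9.33 FPKM in knockout and from 3.48 to 3.75 in wild-type libraries with LPS (log2 1.28 ± 0.08, adjusted p = 1.5e-05). *Mvd*, which makes isopentenyl diphosphate, was at 8.44, 8.04 and 8.11 against 3.90, 3.28 and 4.06 FPKM (1.11 ± 0.09, adjusted p = 5.46e-05). The genes named from these lists were chosen among those whose groups did not overlap.

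In RAW264.7 cells 7 of the 17 enzymes fell and none rose in the labelled knockout with PBS, beside 6.01% of expressed genes that fell, and 5 fell and none rose with LPS, beside 13.5%. With TPM, 1 fell with PBS, and 2 fell and 2 rose with LPS. Without labelled knockout PBS replicate 1 the first count was 7, without labelled knockout PBS replicate 2 it was 3, and without labelled knockout PBS replicate 3 or any 1 of the wild-type PBS replicates it was 4. The count with LPS was 3 without labelled knockout LPS replicate 2. *Tm7sf2*, a sterol reductase, was at 1.34, 1.36 and 1.02 FPKM against 2.52, 2.81 and 3.21 with PBS (-1.14 ± 0.20, adjusted p = 0.00667). *Msmo1*, a methylsterol oxidase, was at 30.04, 24.79 and 25.10 against 46.38, 43.23 and 40.87 FPKM (-0.71 ± 0.09, adjusted p = 0.00107), and *Mvd* at 55.76, 39.20 and 37.32 against 75.73, 72.51 and 66.87 (-0.72 ± 0.14, adjusted p = 0.011). With LPS, *Ebp*, a sterol isomerase, was at 10.23, 9.72 and 9.12 against 16.50, 18.54 and 19.11 FPKM (-0.89 ± 0.16, adjusted p = 0.00447). Without labelled knockout PBS replicate 1 the PBS values were -1.20 for *Tm7sf2*, -0.80 for *Msmo1* and -0.90 for *Mvd*, all called. With TPM *Msmo1* (-0.52) and *Mvd* (-0.53) were under the fold limit.

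Of expressed genes 5.27% rose and 2.75% fell in knockout BMDMs with LPS, and 1.41% and 1.51% with PBS. Of 8 genes of fatty acid synthesis, 3 rose in knockout BMDMs with LPS (2 with median-ratio scaling), among them *Fasn*, the fatty acid synthase, at 3.76, 3.83 and 4.11 against 1.38, 1.65 and 1.72 FPKM (1.25 ± 0.08, adjusted p = 1.5e-05), and with PBS 1 rose, *Fads2*, a fatty acid desaturase (0.61 ± 0.07, adjusted p = 0.00124), which was under the fold limit with median-ratio scaling (0.56), edgeR (0.57), DESeq2 (0.56) and a pseudocount of 1 (0.56), and without wild-type PBS replicate 3 (0.58). Of 10 genes of uptake and lysosomal transfer, 1 rose with LPS and 1 fell with PBS in knockout BMDMs. The latter was *Npc2*, which carries cholesterol out of lysosomes, at 203.75, 200.43 and 197.77 against 304.97, 317.02 and 298.91 FPKM (-0.61 ± 0.05, adjusted p = 7.23e-05). *Npc2* was also lower in the labelled knockout RAW264.7 cells with LPS, at 27.40 to 27.69 against 64.00 to 65.01 FPKM (-1.22 ± 0.15, adjusted p = 0.000601). None of 7 SREBP control genes changed in knockout BMDMs with either treatment.

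The remaining lists are given for the RAW264.7 labelled knockout beside all genes, where 7.56% of expressed genes rose and 6.01% fell with PBS and 15.9% and 13.5% with LPS. With PBS none of 7 SREBP control genes and none of 8 fatty acid genes changed and 1 of 10 uptake genes fell. No uptake gene was called without labelled knockout PBS replicate 2 or 3 or without any 1 of the wild-type PBS replicates. Without labelled knockout PBS replicate 1, 1 control gene fell, 1 fatty acid gene rose, and 3 uptake genes rose and 1 fell. Median-ratio scaling, edgeR and DESeq2 also gave 1 control gene lower. With LPS 1 control gene rose (2 with TPM), 2 uptake genes rose and 1 fell (4 and 1 with TPM), and 2 fatty acid genes rose and 2 fell (2 and 0 with TPM). Of 6 genes of oxysterols and esterification none changed with PBS, and 1 rose and 1 fell with LPS (1 and 0 with TPM). Leaving out 1 library with LPS gave 1 to 2 uptake genes higher and 1 to 2 lower, 1 to 2 fatty acid genes lower and 0 to 1 oxysterol genes lower. The uptake count was 1 higher without replicate 1 or 3 of either LPS group, and 2 lower without wild-type LPS replicate 1 or labelled knockout LPS replicate 2. The fatty acid count was 1 lower without wild-type LPS replicate 1 or labelled knockout LPS replicate 2, and without labelled knockout LPS replicate 2 no oxysterol gene fell. The one that rose was *Gpr183*, a receptor for oxysterols made from 25-hydroxycholesterol, at 33.33, 31.99 and 32.49 FPKM in labelled knockout and 12.69, 12.93 and 13.13 in wild-type libraries (1.33 ± 0.07, adjusted p = 2.83e-06). In BMDMs 5 of these 6 genes could be tested, and 1 fell with LPS.

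Between LPS and PBS the lists must be read against all genes. In wild-type BMDMs, where 56.3% of expressed genes fell and 13.0% rose with the deposited FPKM, 10 of 17 other enzymes fell (1 rose), with 7 of 8 fatty acid genes, 6 of 10 uptake genes (2 rose), 3 of 5 oxysterol genes and 3 of 7 control genes. With median-ratio scaling 3 enzymes rose and 3 fell and their median went from -0.64 to 0.15, 3 control genes rose and none fell, 3 fatty acid genes fell, 3 uptake genes rose and 5 fell, and 3 oxysterol genes fell. In knockout BMDMs, where 52.3% of expressed genes fell, 5 of the 17 enzymes fell and 2 rose, and 9 rose and 2 fell with that scaling. In RAW264.7 cells 8 of 17 fell in wild type, beside 24.2% of expressed genes, and 3 rose and 6 fell with median-ratio scaling. In the labelled knockout 9 fell and 2 rose, beside 26.6% that fell, 8 fell and 3 rose with that scaling, and 8 fell and 1 rose without labelled knockout PBS replicate 1. *Gpr183* went from 14.6 to 15.3 FPKM with PBS to 0.52 to 0.76 with LPS in wild-type BMDMs (-4.29 ± 0.13, adjusted p = 2.01e-09), and *Dhcr7*, the last reductase of the pathway, from 14.83 to 16.45 to 2.71 to 3.09 in wild-type RAW264.7 cells (-2.43 ± 0.09, adjusted p = 7.44e-08). *Cyp27a1*, sterol 27-hydroxylase, fell in wild-type (-2.15 ± 0.16) and labelled knockout RAW264.7 cells (-2.66 ± 0.16) and in knockout BMDMs (-2.64 ± 0.07). *Scd2*, a fatty acid desaturase, was at -2.94 ± 0.06 and *Fasn* at -2.43 ± 0.08 on the log2 scale in wild-type BMDMs, while *Lrp8*, a lipoprotein receptor, was at -2.30 ± 0.12 in knockout BMDMs and *Scd2* at -2.18 ± 0.11 in labelled knockout RAW264.7 cells. Only the 3 largest changes of each comparison are named, so a group left out here is not one without a change. With median-ratio scaling *Gpr183* was at -3.54, *Scd2* at -2.14 and *Fasn* at -1.65 in wild-type BMDMs. *Cyp27a1* was then at -1.92 in wild-type and -2.40 in labelled knockout RAW264.7 cells.

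**Figure D4:**
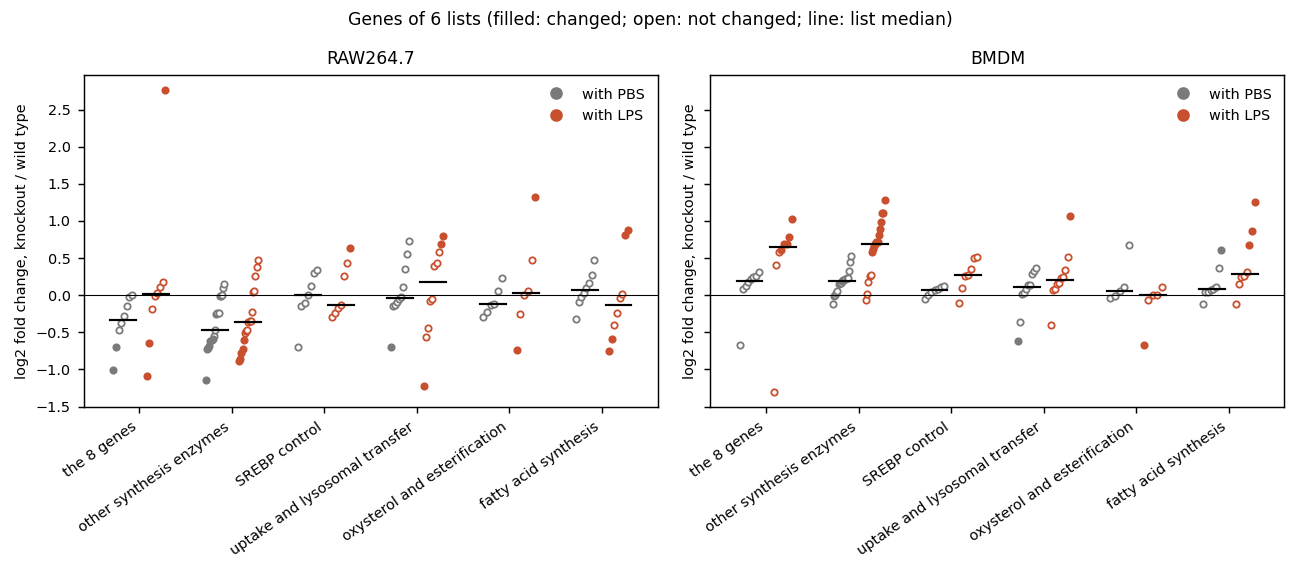
Log2 fold change, knockout over wild type, of each gene in 6 lists in RAW264.7 cells (left) and BMDMs (right), with PBS (grey) and LPS (orange); filled points passed both limits, open points did not, and black lines are list medians. In BMDMs with LPS, 5 of the 8 genes and 12 of 17 other synthesis enzymes are filled above 0, while in RAW264.7 cells the filled synthesis enzymes lie below 0.

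With the deposited FPKM, *Hmgcs1*, *Idi1*, *Insig1*, *Fdft1* and *Fdps* followed each other in BMDMs, and *Sqle* and *Srebf2* did not follow them. This is a description over 12 libraries that share their groups. Pearson correlations of log2(FPKM + 0.1) with *Hmgcs1* were 0.99 for *Idi1* and *Insig1*, 0.98 for *Fdft1* and 0.85 for *Fdps*, while *Sqle* was at -0.27 and *Srebf2* at 0.15. *Sqle* went with *Srebf2*, at 0.87. No correlation was computed with median-ratio scaling. Under it *Srebf2* changed with LPS by 0.55 in wild-type and 0.72 in knockout BMDMs, and *Sqle* by -0.36 and 0.35. The split of *Sqle* and *Srebf2* from the others is thus given for the deposited FPKM only. In RAW264.7 cells the closest pair was *Fdft1* and *Fdps*, at 0.98, and *Idi1* was at 0.18 with *Hmgcs1* and -0.50 with *Fdps*.

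The genes outside the 8 whose profile was most like the mean standardised profile of *Hmgcs1*, *Sqle*, *Fdft1*, *Fdps*, *Idi1* and *Insig1* over 12 libraries were *Mon1b* (Pearson r = 0.986), *Slc16a3* (0.985), *Papss2* (0.976), *Nfe2l1* (0.975) and *Lrrc32* (0.975) in BMDMs. *Papss2*, which makes the sulfate donor PAPS, had means of 3.68, 4.59, 5.11 and 8.04 FPKM in wild type and knockout with PBS and in wild type and knockout with LPS. In RAW264.7 cells they were *Cnnm1* (0.965), *Tox2* (0.964), *Chst1* (0.941), *Plxdc1* (0.931) and *Rcsd1* (0.930). In the same order of groups *Cnnm1* had means of 1.13, 0, 0.07 and 0.007 FPKM and *Tox2* of 3.42, 0, 0.13 and 0. Their r thus rests largely on wild type with PBS, while *Rcsd1* had means of 5.24, 1.91, 2.44 and 1.47. Most like *Ch25h* in BMDMs were *H2-Q5* (0.987), *Cd80* (0.984), *Gm5970* (0.983), *Il10* (0.982) and *Iigp1* (0.981), of which *Iigp1*, an interferon-inducible GTPase, had means of 219.7 FPKM in wild-type and 46.7 in knockout libraries with LPS. In RAW264.7 cells they were *Gm49730* (0.986), *Gm41757* (0.983), *Qsox1* (0.978), *Gm2396* (0.972) and *Rcan1* (0.962), of which *Gm49730* and *Gm41757* were at 0 FPKM in both PBS groups. All these genes are the highest of 12308 candidates in RAW264.7 cells and 11438 in BMDMs.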

How the data were processed

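Poly(A) RNA of 24 libraries was sequenced, and raw counts and FPKM of 56691 genes, with exonic lengths, were deposited by the authors in a table for each cell type. The labels name the build mm10, but of 52073 gene IDs found in GENCODE M21 (GRCm38) only 1448 had the same chromosome and start, so coordinates of the tables are not printed; the sources used here do not give aligner or counter. FPKM computed from counts and lengths came within 1% of the deposited FPKM in 99.9% (RAW264.7) and 99.5% (BMDM) of values above 50 counts. Groups were taken from sample titles, because in 12 of 24 samples the genotype tag says otherwise. limma 3.58.1 (R 4.3.3) fitted log2(FPKM + 0.1) over the 12 libraries of a cell type with 4 group means, for genes above 0 FPKM in at least 1 library (26740 in RAW264.7 cells, 26973 in BMDMs), with the thresholds of the study's methods. Alternatives were pseudocounts of 1 and 0.01, a minimum of 1 FPKM in 3 libraries, median-ratio scaling, TPM, a replicate block, edgeR 4.0.16, DESeq2 1.42.0 and leaving out each library. Scripts were tested on simulated data. Named genes were the 8 members, from the other lists the 3 largest changes per comparison among genes with groups apart and a mean of at least 1 FPKM, and the 5 most correlated genes. The members and lists were chosen with earlier results of these data known. The floor of 3 counts covers counting error of the PBS group only, and the LPS counts were taken as observed.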

Additional observations from a re-analysis of the deposited data

Results flagged for a closer look

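In limma with the deposited FPKM, the interaction was called for *Sqle* (0.82) and *Hmgcs1* (0.61) in BMDMs and for *Ch25h* (2.77) in RAW264.7 cells, all on the log2 scale. *Hmgcs1* was below the fold limit with median-ratio scaling (0.50), edgeR (0.51) and DESeq2 (0.50). *Ch25h* had 0 counts in both RAW264.7 PBS groups, so its size depends on the pseudocount. It was not called by edgeR, by DESeq2 or with a pseudocount of 0.01, and it was lost without some single libraries.

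Several members had every library of a group on opposite sides in the cell types under the same comparison, a difference that was not tested, since the cell types were fitted separately. The share of all genes that did so was not counted. RAW264.7 minus BMDM log2 fold changes of knockout against wild type were -0.64 for *Hmgcs1*, -0.58 for *Sqle*, -1.25 for *Fdps* and -0.55 for *Insig1* with PBS. With LPS they were -1.21 for *Sqle*, -1.26 for *Fdft1*, -1.79 for *Fdps* and 4.07 for *Ch25h*. For LPS against PBS they were -1.01 for *Hmgcs1*, -0.93 for *Fdft1* and -0.73 for *Insig1* in wild type, and -1.42 for *Fdft1* and -1.23 for *Fdps* in the knockout. These are values with the deposited FPKM. With median-ratio scaling *Insig1* in wild-type RAW264.7 cells went from -0.18 to 0.06, the sign it has in BMDMs (1.35), *Fdft1* from -0.34 to -0.10 and *Hmgcs1* from -0.30 to -0.06, and with TPM *Sqle* in the RAW264.7 genotype comparison with LPS went from -0.19 to 0.05, its sign in BMDMs. The labels of the RAW264.7 genotypes carry the limit given for *Olfml3*.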

How the results depend on the processing

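Of 1216 refitted values of single members, 1118 kept their direction and their side of the thresholds, 47 lost a call, 32 gained one, and 19 changed sign, none of them called under either setting. With TPM, RAW264.7 knockout against wild type went from -0.15 to 0.04 for *Idi1* and from -0.02 to 0.17 for *Srebf2* with PBS, and from -0.02 to 0.22 for *Hmgcs1* and from -0.19 to 0.05 for *Sqle* with LPS. With median-ratio scaling, edgeR and DESeq2, LPS against PBS went from -0.18 to 0.06, 0.04 and 0.06 for *Insig1* in wild-type RAW264.7 cells, from -0.25 to 0.55, 0.52 and 0.56 for *Srebf2* in wild-type BMDMs, and from -0.34 to 0.35, 0.33 and 0.35 for *Sqle* in knockout BMDMs. Leaving out 1 library gave values on both sides of 0 for *Srebf2* (-0.07 to 0.05, RAW264.7 knockout with PBS; -0.02 to 0.06, LPS in knockout BMDMs), *Hmgcs1* (-0.06 to 0.01, RAW264.7 knockout with LPS), and in the RAW264.7 interaction *Fdps* (-0.26 to 0.21) and *Fdft1* (-0.04 to 0.19). The number of the 8 genes changed moved by more than 1.5 times in these cases. For knockout against wild type with LPS in BMDMs it was 5 and became 3 with median-ratio scaling, with edgeR and with DESeq2, 2 of them shared. For the BMDM interaction it was 2 and became 1 with the same 3 settings. For RAW264.7 knockout against wild type with PBS it was 2 and became 1 with TPM. For LPS against PBS in wild-type RAW264.7 cells it was 1 and became 3 with a minimum of 1 FPKM in 3 libraries, 0 with median-ratio scaling, 2 with TPM and 2 with edgeR. For the RAW264.7 interaction it was 1 and became 0 with a pseudocount of 0.01, with edgeR and with DESeq2. A count that moved less can still hold other genes. For LPS in wild-type RAW264.7 cells DESeq2 called 1 member, *Ch25h* and not *Sqle*. In labelled knockout cells median-ratio scaling, edgeR and DESeq2 called *Ch25h* and *Idi1*, where limma with the deposited FPKM called *Sqle*, *Ch25h* and *Fdps*. Leaving out 1 library in turn gave 4 to 6 for BMDM knockout with LPS, 2 to 3 for the BMDM interaction, 4 to 5 and 5 to 6 for LPS in wild-type and knockout BMDMs, 0 to 0 for BMDM knockout with PBS, 1 to 2 and 3 to 3 for RAW264.7 knockout with PBS and LPS, 1 to 2 and 2 to 3 for LPS in wild-type and labelled knockout cells, and 0 to 1 for the RAW264.7 interaction. The interaction of *Ch25h* was lost without any 1 of the wild-type PBS replicates, without wild-type LPS replicate 2 or without labelled knockout LPS replicate 3 (adjusted p = 0.0511 to 0.0544). The cause of these shifts was not tested.

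Samples of the same replicate number did not deviate together (correlations of deviations from group means of -0.03 to 0.08 in RAW264.7 cells and 0.0 to 0.09 in BMDMs), so the numbers were not read as pairs. A fit with the replicate block gave 5 changed genes for BMDM knockout with LPS and 2 for RAW264.7 knockout with PBS and changed no call of a member. At these depths *Ch25h* with PBS rests on at most 11 counts per library.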
